A study of Lupinus albus with 12 samples.

Results

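Trehalose-phosphate synthase genes of white lupin (Lupinus albus) were described in root tip sections exposed to sucrose. Of 33388 genes in the deposited data, 17 had "trehalose-phosphate synthase" in their protein name, and the members described here were chosen by read count, as the 10 of these with the most reads summed over the 12 libraries. Those 10 genes held 99.5% of the reads of the 17, and all 10 passed the filter on low counts. Their abundance is therefore a description and was given no test. The gene just inside this choice, Lalb_Chr01g0006921, had 1873 reads and the gene just outside it, Lalb_Chr08g0236381, had 1429 reads.

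RNA-seq of polyadenylated RNA was done on wild-type plants of the cultivar Amiga grown in hydroponic Hoagland solution. There were 4 groups of 3 plants, namely untreated controls harvested at 0 min and plants harvested after 20, 40 and 80 min in solution brought to 10 mM sucrose. Each library came from the root tips of 1 plant, taken as sections of 4 to 5 cm, so the replicates were separate plants. No untreated plants were harvested at the later times, so effects of sucrose and of handling or hour of harvest cannot be told apart, and the 3 comparisons with control share the same 3 control libraries.

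Trehalose-phosphate synthases join UDP-glucose and glucose 6-phosphate into trehalose 6-phosphate, which phosphatases turn into trehalose and trehalases split into glucose. In Arabidopsis, trehalose 6-phosphate follows sucrose supply and acts as a signal of it, in part by inhibiting the kinase SnRK1. Arabidopsis has class I synthases, which carry the synthase activity, and class II proteins, whose functions are less well known. Several class II transcripts there respond to sugar.

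The members fell into 2 kinds by their protein name. Lalb_Chr20g0109161 and Lalb_Chr01g0006921 were named as synthase alone, with an enzyme number for the UDP-forming synthase. Their deposited lengths were 951 and 785 residues, they were placed in the glycosyltransferase family of these enzymes, and their gene ontology terms held the synthase activity beside the phosphatase activity. The other 8 were named as synthase together with trehalose-phosphatase, were placed in the phosphatase family too, had the phosphatase activity alone among these 2 terms, and had lengths between 840 and 863 residues. The names come from automatic annotation, and no enzyme activity was measured. The 10 genes lay on 10 chromosomes. Lalb_Chr01g0006921 stood next to Lalb_Chr01g0006911, a gene for 166 residues that also carries the synthase name. Reads shared between similar copies of this family may have been split between them, so the counts of single members are uncertain to that extent.

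The libraries held between 35050877 reads (20 min plant 2) and 105299704 reads (80 min plant 2). The 20 min plant 2 and 80 min plant 3 libraries stood apart from the other plants of their groups, with scores of 156 and 108 on the first principal component, against 10.6 and -21.0 for the other 20 min plants and -145 and -129 for the other 80 min plants. On the same side of their groups, though less far out, lay 40 min plant 2 (85.7, against -20.1 and -10.7 for the other 40 min plants) and control plant 3 (33.5, against -33.3 and -34.8 for the other controls). That component held 18.8% of the variance. Summed CPM (read counts relative to library size, with TMM scaling) of 4 root marker genes, none at 0 in any library, was 155 to 313 in controls, 67.0 to 126 at 20 min, 119 to 129.6 at 40 min and 75.6 to 146 at 80 min of sucrose. Of 111 green-tissue genes 53 averaged at least 1 CPM, and between 16 and 27 of the 111 were at 0 in a library. Their sum was 565 to 728 CPM in controls, 1957, 570 and 1318 CPM in 20 min plants 1, 2 and 3, 349 to 683 CPM at 40 min and 459 to 555 CPM at 80 min. Of 12 low-oxygen genes 11 averaged at least 1 CPM and up to 2 were at 0 in a library. Those summed to 4040 to 7462 CPM in controls, 30352, 1655 and 20325 CPM in 20 min plants 1, 2 and 3, 999 to 2076 CPM at 40 min and 1911 to 3695 CPM at 80 min. The part of these differences in the results on the synthase genes was not tested. In tissue RNA, fewer cells of a type and less RNA per cell cannot be told apart.

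Of the 10 members, the 2 genes named synthase alone had the lowest mean levels in root tips. Per transcript length, in the authors' FPKM, the highest member was Lalb_Chr05g0222101 at 22.6 ± 5.09 FPKM (SD over 12 libraries), followed by Lalb_Chr21g0308741 at 18.3 ± 4.99 FPKM and Lalb_Chr09g0326411 at 17.9 ± 5.49 FPKM. Neither neighbouring pair among these 3 genes differed in level beyond its spread. Lalb_Chr19g0134851 had 12.4 ± 1.51 FPKM and Lalb_Chr07g0180141 had 12.3 ± 6.66 FPKM. Below them came Lalb_Chr03g0030021 at 6.22 ± 1.26 FPKM, Lalb_Chr13g0300471 at 5.56 ± 4.36 FPKM and Lalb_Chr16g0392441 at 4.23 ± 1.38 FPKM. The synthase-alone genes had means of 3.20 ± 1.39 FPKM for Lalb_Chr20g0109161 and 0.534 ± 0.233 FPKM for Lalb_Chr01g0006921. Lalb_Chr16g0392441 was above Lalb_Chr20g0109161 in 7 of 12 libraries, which is within the spread.

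In this order 3 of the 9 neighbouring pairs differed by more than the SD of their difference over the 12 libraries. Lalb_Chr09g0326411 was above Lalb_Chr19g0134851 in 10 of 12 libraries, by 0.47 ± 0.42 in log2 FPKM. Lalb_Chr07g0180141 was above Lalb_Chr03g0030021 in 12 of 12 libraries, by 0.83 ± 0.64. Lalb_Chr20g0109161 was above Lalb_Chr01g0006921 in 12 of 12 libraries, by 2.59 ± 0.57. In the other 6 pairs the order was not stable against the spread. Lalb_Chr05g0222101 was the top member in 9 libraries, and Lalb_Chr21g0308741 in the remaining ones, which were 40 min plants 1 and 3 and 80 min plant 1.

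**Figure D1:**
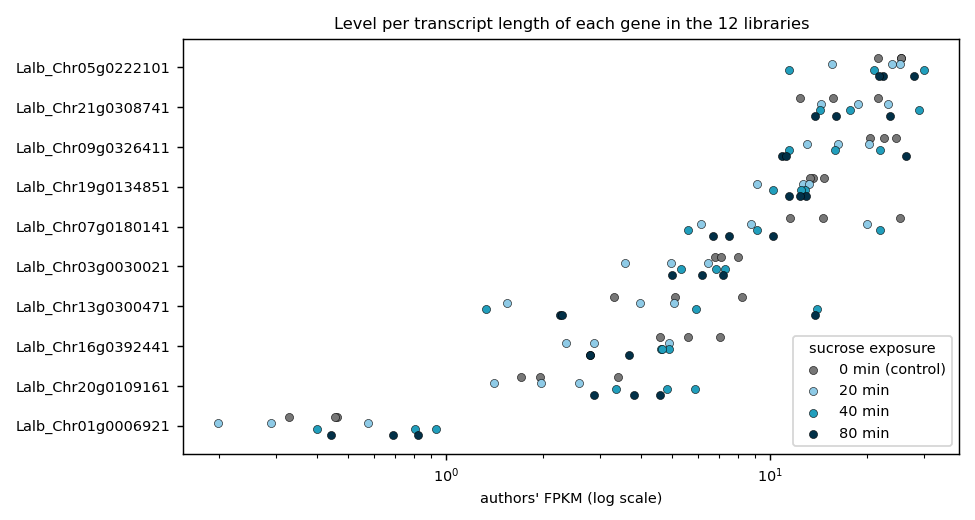
Level of each member in the authors' FPKM (horizontal log axis), with 1 point for each of the 12 libraries, coloured by time in sucrose, and the genes in order of their mean. Points of Lalb_Chr05g0222101 lie between 11.5 and 29.98 FPKM and those of Lalb_Chr01g0006921 between 0.199 and 0.935 FPKM, while Lalb_Chr13g0300471 spreads from 1.33 to 13.97 FPKM.

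Among the synthase-phosphatase genes, Lalb_Chr16g0392441 had the lowest p-value against control. It had 28.9, 39.9 and 24.0 CPM in control plants 1 to 3, then 13.5, 28.5 and 16.1 CPM at 20 min, 23.7, 23.1 and 22.6 CPM at 40 min, and 13.8, 14.2 and 18.3 CPM at 80 min. All 40 min and all 80 min plants lay below all controls, and at 20 min plants 1 and 3 did, while plant 2 overlapped with them. The 80 min plants also lay below all 40 min plants. By edgeR's quasi-likelihood test the log2 fold change over control was -0.68 (SE 0.30, adjusted p = 0.390) at 20 min and -0.42 (SE 0.30, adjusted p = 0.999) at 40 min. At 80 min it was -1.004 (SE 0.30, 95% interval -1.67 to -0.34), with an unadjusted p of 0.00719 and an adjusted p of 0.362 over all genes. DESeq2 gave an adjusted p of 0.0521 at 80 min, and the authors' deposited table gives a log2 fold change of -1.03 with an adjusted p of 0.0609. No test called the gene with all libraries. Without 20 min plant 2 and 80 min plant 3, it was called at 20 min (-1.16, edgeR adjusted p = 0.0276) and at 80 min (-1.16, adjusted p = 0.0367). For this gene the 2 plants left out had the highest CPM of their groups, 28.5 at 20 min and 18.3 at 80 min. Leaving them out removes the plants nearest the controls, so these calls are no separate evidence of a change in the gene. Over its 18 alternatives the adjusted p at 80 min ran from 0.0367 to 0.749 and the log2 fold change from -1.25 to -0.78. Over the 12 libraries its log2 CPM had a Pearson correlation of 0.61 with the log2 sum of the 4 root markers, whose part in these values was not tested.

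Lalb_Chr07g0180141 and Lalb_Chr09g0326411 had lower means at every sucrose time than in controls, with a wide spread between plants. Lalb_Chr07g0180141 had 57.9, 80.0 and 127 CPM in controls, 34.0, 49.1 and 108 CPM at 20 min, 42.9, 106 and 26.2 CPM at 40 min, and 48.9, 33 and 36.0 CPM at 80 min. All 80 min plants lay below all controls, and the other times overlapped with control. Its log2 fold change at 80 min was -1.17 (SE 0.56, 95% interval -2.42 to 0.08, edgeR adjusted p = 0.523). At 40 min it was -1.39 without 40 min plant 2 and -0.24 without 40 min plant 3. Lalb_Chr09g0326411 had 123, 112 and 114 CPM in controls, 72.6, 114 and 88.4 CPM at 20 min, 74.5, 107 and 54.0 CPM at 40 min, and 52.1, 55.2 and 127 CPM at 80 min. All 40 min plants lay below all controls, and at 80 min plants 1 and 2 lay far below them while plant 3 was the highest of the 12. Its log2 fold change was -0.57 at both 40 min (SE 0.37, edgeR adjusted p = 0.994) and 80 min (SE 0.37, adjusted p = 0.610). Without 40 min plant 2 the value at 40 min was -0.90. Without 20 min plant 2 and 80 min plant 3 it was -1.13 at 80 min and was called (edgeR adjusted p = 0.0482, over 18 alternatives 0.0482 to 0.926). That fit leaves out the 80 min plant that was the highest of the 12, so the call is no separate evidence of a change.

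For the 2 members with the highest mean levels, every sucrose group overlapped with the controls. Lalb_Chr05g0222101 had 139.8, 131 and 142 CPM in controls, 95.5, 148 and 152 CPM at 20 min, 108, 160.3 and 59.2 CPM at 40 min, and 118, 118 and 148 CPM at 80 min. The controls lay close together, and the 40 min plants spread on both sides of them. Its log2 fold changes over control were -0.06, -0.33 and -0.10 at 20, 40 and 80 min (SE 0.32 each), with 95% intervals within -1.05 and 0.66. At 40 min it was -0.75 without 40 min plant 2 (unadjusted p = 0.0341, edgeR adjusted p = 0.832) and -0.03 without 40 min plant 3. Lalb_Chr21g0308741 had 107, 85.2 and 61.9 CPM in controls, 79.6, 129.7 and 101 CPM at 20 min, 134, 68.8 and 82.6 CPM at 40 min, and 111, 78.2 and 65.9 CPM at 80 min. All its groups overlapped, with log2 fold changes of 0.29, 0.17 and 0.01 (SE 0.32 each) and 95% intervals within -0.71 and 1.01. The intervals leave room for changes of up to about these sizes in either direction.

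Lalb_Chr19g0134851 was the steadiest member. It had 72.6, 73.5 and 66.0 CPM in controls, 50.1, 70.2 and 70.5 CPM at 20 min, 59.1, 59.8 and 47.2 CPM at 40 min, and 60.9, 59.9 and 54.4 CPM at 80 min. All 40 min and all 80 min plants lay below all controls. The distance was small, with log2 fold changes of -0.35 at 40 min (SE 0.18, unadjusted p = 0.0768, edgeR adjusted p = 0.902) and -0.28 at 80 min (SE 0.18, adjusted p = 0.614), and it was -0.15 at 20 min.

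Lalb_Chr03g0030021 had 34.1, 39.0 and 40.4 CPM in controls, 19.9, 36.5 and 27.2 CPM at 20 min, 34.2, 33.4 and 25.2 CPM at 40 min, and 34.3, 30.6 and 24.1 CPM at 80 min. Every sucrose group had at least 1 plant within the range of the controls. Its log2 fold changes were -0.44, -0.29 and -0.35 at 20, 40 and 80 min (SE 0.25 each), the lowest edgeR adjusted p being 0.479. Its log2 CPM had a Pearson correlation of 0.72 with the log2 sum of the root markers (12 libraries), whose part was not tested. Lalb_Chr13g0300471 varied most from plant to plant. It had 33.1, 23.5 and 53.7 CPM in controls, 11.1, 36.8 and 27.9 CPM at 20 min, 35.9, 87.7 and 8.09 CPM at 40 min, and 13.9, 14.6 and 85.8 CPM at 80 min. Its highest plant was 10.8-fold above its lowest, and both extremes fell within the 40 min group. Its log2 fold changes of -0.54, 0.26 and 0.05 had SEs of 0.89 to 0.90, and at 80 min the value was -1.35 without plant 3 alone. At 40 min it was -0.77 without plant 2 and 0.75 without plant 3.

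The gene named synthase alone with more reads, Lalb_Chr20g0109161, had its highest levels at 40 min. It had 10.0, 12.5 and 20.0 CPM in controls, 16.8, 12.9 and 8.95 CPM at 20 min, 32.1, 19.0 and 26.5 CPM at 40 min, and 21.2, 26.3 and 16.2 CPM at 80 min. At 40 min plants 1 and 3 lay above all controls and plant 2 just under the highest control, and all 40 min plants lay above all 20 min plants. The log2 fold change over control was 0.86 at 40 min (SE 0.35, 95% interval 0.10 to 1.63, unadjusted p = 0.0310, edgeR adjusted p = 0.757) and 0.58 at 80 min (SE 0.34, adjusted p = 0.586). Between times, 40 min over 20 min gave 1.01 (SE 0.35, unadjusted p = 0.0155, adjusted p = 0.265, over 18 alternatives 0.0835 to 0.603). Its log2 CPM had Pearson correlations of -0.56 with the log2 sum of the low-oxygen genes and -0.50 with that of the green-tissue genes (12 libraries), whose part was not tested.

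Lalb_Chr01g0006921, the other gene named synthase alone, had between 61 and 355 reads in a library, so its values carry more counting error than those of the other members. It had 1.94, 2.08 and 1.38 CPM in controls, 0.921, 2.70 and 1.32 CPM at 20 min, 3.65, 1.63 and 3.14 CPM at 40 min, and 2.75, 3.38 and 1.78 CPM at 80 min. In both later groups 2 of the 3 plants were above all controls and the remaining plant was within their range. The log2 fold changes were -0.13, 0.64 and 0.55 at 20, 40 and 80 min (SE 0.50 each, lowest edgeR adjusted p = 0.707). Over the 12 libraries its log2 CPM had a Pearson correlation of -0.86 with the log2 sum of the green-tissue genes and of -0.66 with that of the low-oxygen genes, both of which were highest in 20 min plants 1 and 3. What these shared values contribute was not tested.

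**Figure D2:**
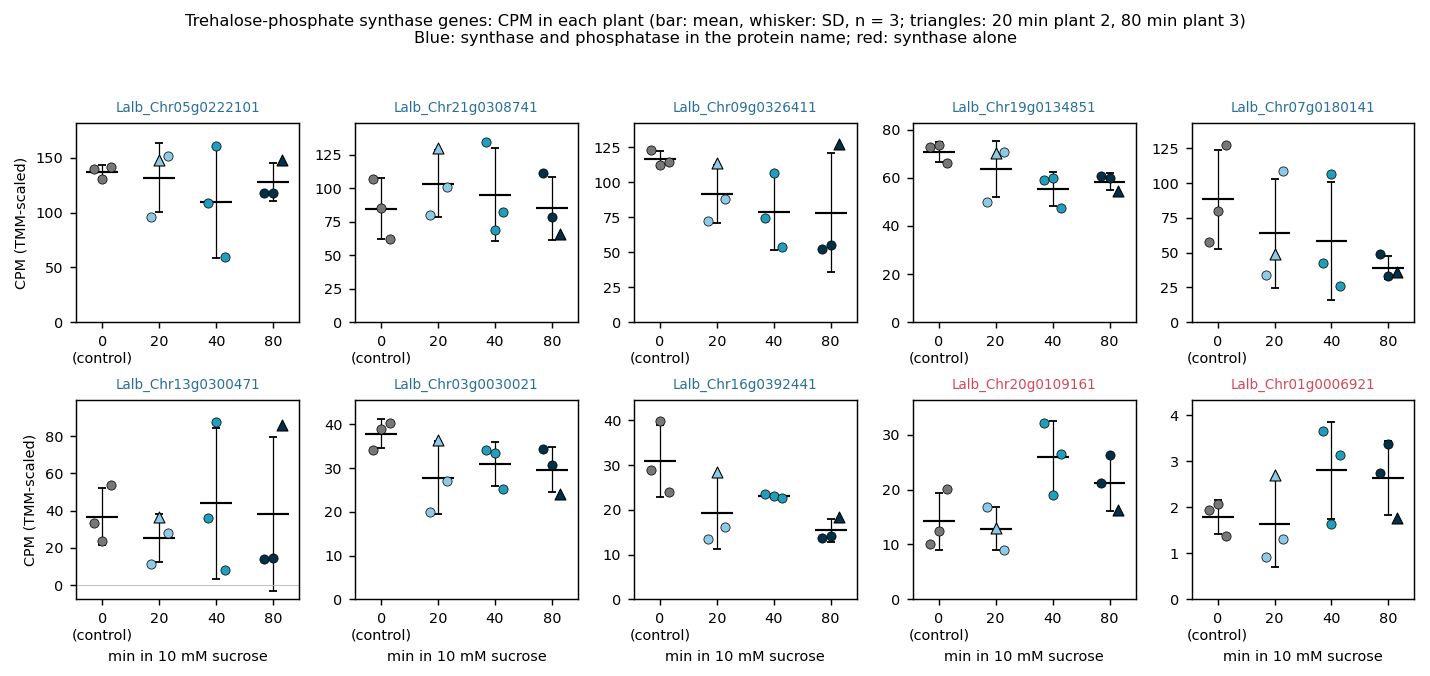
TMM-scaled CPM of the 10 members (vertical axes) in each plant at 0 (control), 20, 40 and 80 min in 10 mM sucrose, with the mean as a bar, the SD as a whisker (n = 3) and 20 min plant 2 and 80 min plant 3 as triangles. For Lalb_Chr16g0392441 the 80 min plants lie at 13.8 to 18.3 CPM, below the controls at 24.0 to 39.9 CPM, and for Lalb_Chr20g0109161 the 40 min plants lie at 19.0 to 32.1 CPM, against 10.0 to 20.0 CPM in controls.

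No member was called in any comparison with all libraries (edgeR adjusted p below 0.05 over 28980 genes). At 20 min 0 of 10 members were called, against 0.0242% of all genes tested. DESeq2 called 0 of 10 there as well, against 4.44% of all genes, and 1 member (Lalb_Chr16g0392441) had an unadjusted edgeR p below 0.05, against 12.6% of all genes. At 40 min edgeR called 0 of 10, against 0.0897% of all genes, and DESeq2 0 of 10, against 2.02%. The only member with an unadjusted p below 0.05 at 40 min was Lalb_Chr20g0109161, against 5.99% of all genes. At 80 min edgeR called 0 of 10, against 0.0104%, DESeq2 called 0 of 10, against 3.11%, and only Lalb_Chr16g0392441 had an unadjusted p below 0.05, against 9.92%. Read against all genes, 1 member in 10 with an unadjusted p below 0.05 was near the background at each time. Without 40 min plant 2, 4 members had an unadjusted edgeR p below 0.05 at 40 min, against 5.72% of 29608 genes. They were Lalb_Chr05g0222101, Lalb_Chr09g0326411, Lalb_Chr07g0180141 and Lalb_Chr20g0109161, and edgeR called 0 members and 0 genes. The plant left out had the highest CPM of the 40 min group for all of these but Lalb_Chr20g0109161, where it had the lowest. Leaving it out moves all 4 fold changes away from 0, so this count is no separate evidence of a change. Without 40 min plant 1 or plant 3, 0 members had an unadjusted edgeR p below 0.05 at 40 min.

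The edgeR F test over the 4 times also called 0 of 10 members, against 0.0725% of all genes. DESeq2's likelihood ratio test over the 4 times called 0 of 10, against 8.37%. The unadjusted p of the F test was below 0.05 for Lalb_Chr16g0392441 (0.0380, adjusted 0.348) and Lalb_Chr20g0109161 (0.0448, adjusted 0.364), against 13.4% of all genes. Between sucrose times edgeR called 0 of 10 members and 0.0% of all genes in each of the 3 comparisons, and DESeq2 called 0 of 10, against 5.07% (40 over 20 min), 7.5% (80 over 20 min) and 0.87% (80 over 40 min). An unadjusted edgeR p below 0.05 was found for 1 member from 20 to 40 min, 0 from 20 to 80 min and 0 from 40 to 80 min, against 14.2%, 17.3% and 4.51% of all genes. All 40 min plants lay above all 20 min plants for 1 member, Lalb_Chr20g0109161, against 9.52% of all genes. All 80 min plants lay below all 40 min plants for 1 member, Lalb_Chr16g0392441, against 4.34% of all genes. Without 20 min plant 2 and 80 min plant 3, edgeR called 1, 0 and 2 of the 10 members at 20, 40 and 80 min against control, against 8.16%, 0.846% and 5.54% of 29445 genes. The F test then called 1 member (Lalb_Chr16g0392441, adjusted p = 0.0282, over 17 alternatives 0.0282 to 0.607), against 15.2% of all genes, and 0 were called between times, against 10.7%, 17.7% and 2.27%.

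By direction, most members had fold changes below 0 against control. At 20 min 9 of 10 were below 0, against 46.2% of all genes, with a median log2 fold change of -0.25 for the members and 0.06 for all genes tested. At 40 min 6 of 10 were below 0, against 42.8% of all genes, with medians of -0.31 and 0.08. At 80 min 6 of 10 were below 0, against 42.3%, with medians of -0.19 and 0.12. All sucrose plants lay below all controls for 0 of 10 members at 20 min, against 10.8% of all genes. At 40 min this held for 3 members (Lalb_Chr16g0392441, Lalb_Chr09g0326411 and Lalb_Chr19g0134851), against 8.35%. At 80 min it held for 3 members (Lalb_Chr16g0392441, Lalb_Chr19g0134851 and Lalb_Chr07g0180141), against 9.05%. For 0 of 10 members did all sucrose plants lie above all controls at any time, against 10.8%, 6.9% and 8.62% of all genes at 20, 40 and 80 min. Members share libraries and are not independent, and the 4 root marker genes too were lower in every sucrose plant than in every control by their sum, as given above.

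**Figure D3:**
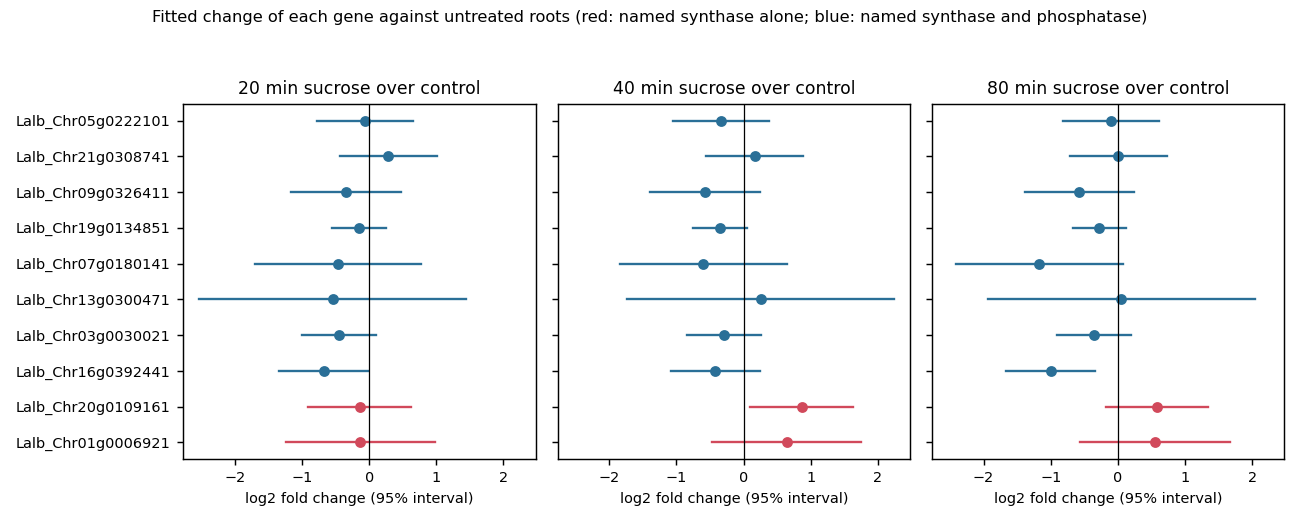
Log2 fold change of each member over control at 20, 40 and 80 min (horizontal axes), with the 95% interval from the edgeR fit as a line, blue for genes named synthase and phosphatase and red for genes named synthase alone. At 80 min the interval of Lalb_Chr16g0392441 lies below 0 (-1.67 to -0.34) and at 40 min that of Lalb_Chr20g0109161 lies above 0 (0.10 to 1.63), and neither passed adjustment over all genes.

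Fold changes of the genes named synthase and phosphatase and of those named synthase alone are given side by side, beside 46.2, 42.8 and 42.3% of all genes below 0 at 20, 40 and 80 min. The median log2 fold change of the 8 synthase-phosphatase genes was -0.39, -0.34 and -0.31 at 20, 40 and 80 min, with 7, 6 and 6 of them below 0. Lalb_Chr21g0308741 and Lalb_Chr13g0300471 were the 2 above 0 at 40 and 80 min. For the pair named synthase alone it was -0.14, 0.75 and 0.57, with 2, 0 and 0 below 0. The 8 genes summed to 597, 584 and 629 CPM in controls, 376, 613 and 591 CPM at 20 min, 513, 646 and 325 CPM at 40 min, and 453, 404 and 560.2 CPM at 80 min. All 80 min plants lay below all controls by this sum, and the other times overlapped. The synthase-alone pair summed to 11.9, 14.6 and 21.4 CPM in controls, 17.7, 15.6 and 10.3 CPM at 20 min, 35.8, 20.6 and 29.6 CPM at 40 min, and 23.9, 29.7 and 18.0 CPM at 80 min. At 40 and 80 min 2 of 3 plants were above all controls.

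Per transcript length, the synthase-alone pair made up 2.38 ± 0.59% of the summed FPKM of the 10 genes in controls, 2.67 ± 1.26% at 20 min, 5.53 ± 2.43% at 40 min and 4.66 ± 1.71% at 80 min (SD, n = 3 each). The plants were at 1.85, 2.28 and 3.02% in controls. In sucrose they were at 4.05, 2.36 and 1.59% after 20 min, at 6.05, 2.89 and 7.67% after 40 min and at 4.64, 6.38 and 2.95% after 80 min. At 40 and 80 min the plant within the control range was the plant with the highest sum of the 8 other genes. Most of the pair's sum came from Lalb_Chr20g0109161, with a mean of 3.20 FPKM over the 12 libraries against 0.534 FPKM for Lalb_Chr01g0006921. The sum of the pair therefore largely follows Lalb_Chr20g0109161, while its share also depends on the sum of the 8 other genes. In 40 min plant 3, with the highest share (7.67%), the pair had 5.64 FPKM and the 8 others 67.8 FPKM. In 40 min plant 1 (6.05%) the pair had more, 6.81 FPKM, beside 105.9 FPKM for the 8 others. The 2 kinds of gene were not tested against each other.

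**Figure D4:**
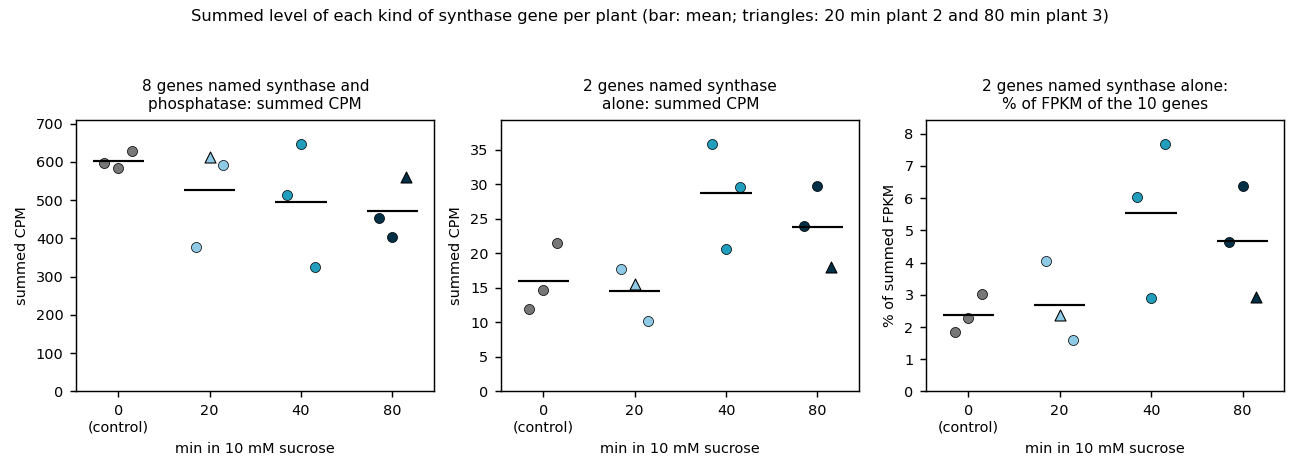
Summed CPM of the 8 genes named synthase and phosphatase (left), of the 2 genes named synthase alone (middle) and the share of these 2 in the FPKM of all 10 genes (right, in percent), for each plant by minutes in 10 mM sucrose, with the mean as a bar and 20 min plant 2 and 80 min plant 3 as triangles. The share has means of 2.38%, 2.67%, 5.53% and 4.66% at 0, 20, 40 and 80 min, with 1 plant at 40 min and 1 at 80 min inside the range of the controls.

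The spread between plants of a group differed among members. The within-group SD of log2 CPM was 0.18 for Lalb_Chr19g0134851, 0.29 for Lalb_Chr03g0030021 and 0.36 for Lalb_Chr16g0392441, and it was highest for Lalb_Chr07g0180141 at 0.74 and Lalb_Chr13g0300471 at 1.27. The median over the 28980 genes tested was 0.62, and the members other than Lalb_Chr07g0180141 and Lalb_Chr13g0300471 lay below it. The members were chosen by read count, and genes with few reads carry more counting error. Their spread was not set against that of genes at similar levels. Some members followed each other across the 12 libraries. Lalb_Chr13g0300471 had a Pearson correlation of 0.80 with Lalb_Chr09g0326411 and of 0.78 with Lalb_Chr05g0222101 in log2 CPM, and of 0.93 and 0.89 for the deviations from group means. All 3 were high in 40 min plant 2 and 80 min plant 3 and low in 40 min plant 3. Lalb_Chr03g0030021 and Lalb_Chr19g0134851 had 0.73. The lowest correlation was -0.64, between Lalb_Chr20g0109161 and Lalb_Chr19g0134851. These points share depth, scaling and libraries, and with the first principal component the values were 0.69 for Lalb_Chr09g0326411 and 0.63 for Lalb_Chr13g0300471.

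Outside the family, among 18369 named genes with at least 2 CPM, the genes most like the leading members over the 12 libraries were listed by Pearson correlation of log2 CPM. For Lalb_Chr05g0222101 they were Lalb_Chr08g0236491, a protein with WLM and PUB domains (0.93), Lalb_Chr02g0143081, a putative secoisolariciresinol dehydrogenase (0.90), and Lalb_Chr06g0174171, a CID domain protein (0.89). For Lalb_Chr21g0308741 they were Lalb_Chr02g0145431, a putative splicing factor 3A subunit (0.94), Lalb_Chr03g0037491, an Argonaute family protein (0.91), and Lalb_Chr11g0063851, a putative peptidylprolyl isomerase (0.89). Of so many genes the best matches are high by selection, and the values are a description.

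Downstream of the synthases, the trehalose 6-phosphate phosphatases had 9 of 12 fold changes below 0 at each time, against 46.2, 42.8 and 42.3% of all genes at 20, 40 and 80 min. Of 13 such genes 12 were tested and edgeR called 0 at each time. DESeq2 called 1, 3 and 1 of them down and 0 up at 20, 40 and 80 min, against 4.44, 2.02 and 3.11% of all genes called in either direction. By edgeR 3, 4 and 3 were below 0 with an unadjusted p below 0.05, and 0, 0 and 1 above 0, against 12.6, 5.99 and 9.92% of all genes in either direction. The medians were -0.45, -0.98 and -0.53. Lalb_Chr08g0241961, the phosphatase with the most reads, had 174 ± 68.2 CPM in controls and 127 ± 83.7, 23.5 ± 6.38 and 53.1 ± 13.8 CPM at 20, 40 and 80 min (SD, n = 3 each). Its log2 fold change at 40 min was -2.89 (edgeR adjusted p = 0.165). Lalb_Chr01g0003381 had 116 ± 6.99 CPM in controls and 62.5 ± 32.1, 58.4 ± 10.7 and 52.3 ± 15.6 CPM at 20, 40 and 80 min, with log2 fold changes of -0.89, -0.99 and -1.15 (lowest edgeR adjusted p = 0.387).

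The trehalase that was tested, Lalb_Chr05g0223881, had 3.39 ± 0.96 CPM in controls and 8.59 ± 2.18, 5.85 ± 1.70 and 6.15 ± 0.15 CPM at 20, 40 and 80 min. Its log2 fold change at 20 min was 1.34 (edgeR adjusted p = 0.206), and DESeq2 called it there (adjusted p = 0.00287). The other of the 2 trehalase genes, Lalb_Chr05g0223891, had 74 reads in all and was not tested.

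**Figure D5:**
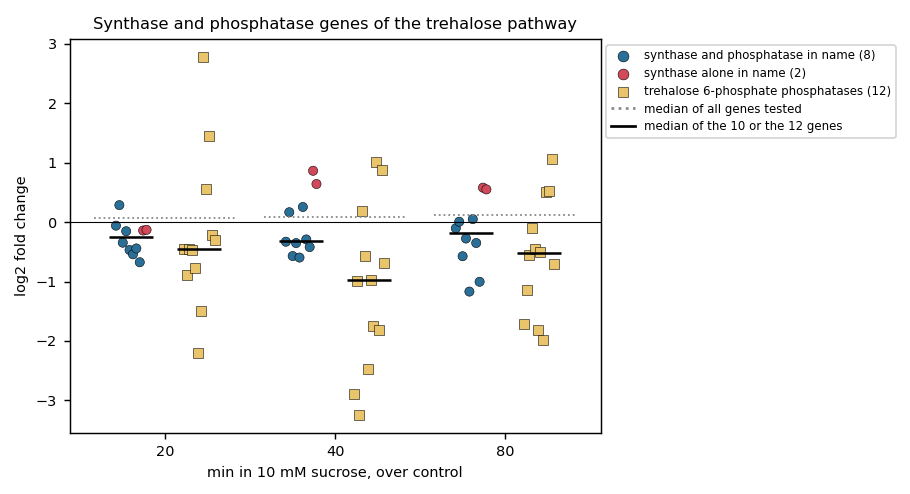
Log2 fold change over control (vertical axis) at 20, 40 and 80 min in sucrose of the 10 synthase genes (circles) and the 12 tested trehalose 6-phosphate phosphatases (squares), with the median of each list as a solid line and the median of all genes tested dotted. The phosphatase medians are -0.45, -0.98 and -0.53, the synthase medians -0.25, -0.31 and -0.19.

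In lists for the substrates and targets of the pathway edgeR also called 0 genes at each time. The counts called by DESeq2 in these lists stand beside 4.44, 2.02 and 3.11% of all genes at 20, 40 and 80 min. Among genes of the SnRK1 complex (8 of 9 tested) DESeq2 called 0 up at each time and 1, 0 and 0 down at 20, 40 and 80 min. Lalb_Chr10g0105981, with a domain that associates with the SNF1 complex, had log2 fold changes of 0.04, -0.41 and -0.46, and Lalb_Chr12g0195961, with the same domain, had 0.82, 0.21 and 0.50. Of the FLZ proteins, which bind SnRK1 in Arabidopsis, 21 of 27 were tested and 14 of 21 were below 0 at each time, against 46.2, 42.8 and 42.3% of all genes. DESeq2 called 1, 0 and 0 of them up and 1, 5 and 0 down. The FLZ genes with the most reads, Lalb_Chr08g0232731 and Lalb_Chr09g0329621, had log2 fold changes of -1.71 and -2.44 at 40 min. The lowest edgeR adjusted p of any FLZ gene at 40 min was 0.255.

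UDP-glucose pyrophosphorylases, which make or use the UDP-glucose that the synthases need, had 5 of 6 genes tested and 0 called by DESeq2. The most abundant, Lalb_Chr15g0085251, had log2 fold changes of 0.27, -0.15 and 0.22, and Lalb_Chr23g0264941 had -0.34, 0.39 and 0.58. Sucrose synthases, which release UDP-glucose from sucrose, had 10 of 12 genes tested, with 0, 1 and 2 called down and 0 up by DESeq2. Lalb_Chr11g0073991 among them had 0.44, -1.22 and -2.33 at 20, 40 and 80 min, and Lalb_Chr07g0181391 had 0.45, -0.27 and -1.19. The lowest edgeR adjusted p of any sucrose synthase was 0.198 at both 40 and 80 min. Of the sucrose-phosphate synthases 2 of 3 were tested and DESeq2 called 1 down at 20 min and 0 at the other times. It was Lalb_Chr13g0301461, at -1.80, -1.02 and -0.88, and the other, Lalb_Chr12g0198281, was at -0.84, -0.17 and -0.22. The sucrose-phosphatase tested, Lalb_Chr02g0154241, was not called by DESeq2 and was at -0.75, -0.38 and -0.04.

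A name search for hexokinases found 13 genes, all tested, among them phosphofructokinases whose synonym holds the word. DESeq2 called 0 up at each time and 0, 1 and 1 down. The most abundant, both phosphofructokinases, were Lalb_Chr22g0349871 at -0.15, -0.33 and -0.86 and Lalb_Chr14g0375211 at -0.18, -3.62 and -1.87. The lowest edgeR adjusted p of the 13 genes at 40 min was 0.251. Of 22 genes for 14-3-3 proteins, which in Arabidopsis bind class II synthase proteins, all were tested, and DESeq2 called 1 down at 20 min and 0 at other times. Lalb_Chr22g0356891 was at -0.04, -0.11 and -0.18, and Lalb_Chr10g0102501 at -0.31, -0.06 and -0.07.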

How the data were processed

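Root tip RNA of 12 plants was sequenced as polyadenylated RNA with a strand-marking kit, per the labels' protocols. The authors deposited raw read counts per gene and library, as the file headers and the whole-number values show. FPKM values deposited by the authors for the same libraries were used for levels between genes. The table also holds their comparisons of each time with control (log2 fold changes with raw and adjusted p-values), per the file headers. Per the submitters' processing notes, their tools included HISAT2, StringTie, DESeq2, Trimmomatic 0.32 and bcl2fastq 2.20. Settings and a genome build were not given in the sources used here, so no coordinates are printed. Deposited lengths were read as residues, since 3 times the length was within the gene's span for 100% of genes. All 33388 gene identifiers matched RefSeq's table of assembly CNRS_Lalb_1.0, which gave chromosomes and neighbours.

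From the counts, edgeR 4.0.16 in R 4.3.3 (with limma 3.58.1) fitted all 12 libraries by group with TMM scaling, filterByExpr and the robust quasi-likelihood F test on 28980 genes. P-values were adjusted by Benjamini-Hochberg over all genes tested and called below 0.05. SEs follow from the F statistic, and 95% intervals use the fit's total degrees of freedom (8 residual, median 10.2 in all). Log2 CPM used a prior count of 2. DESeq2 1.42.0 was run on the same genes. Other alternatives were RLE scaling, no filter, the replicate number as a block, only the 6 libraries compared, and leaving out each library, or 20 min plant 2 and 80 min plant 3 together. The fit was also run on simulated data, at dispersions (edgeR's measure of spread between plants) below the common dispersion of 0.449 here. That run therefore does not show how many true changes the fit would find in these data.

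The members, lists, tests and alternatives were chosen with earlier results of these data known. The text names every member, the 2 genes with the most reads of each list (genes on a list found by words in the protein name), and the 3 genes most correlated with the members the choice rule names. Green-tissue, root and low-oxygen markers were found by name in the same way. The correlations with marker sums given for single members were picked as the largest in size over all members. The others lay between -0.44 and 0.42.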

Additional observations from a re-analysis of the deposited data

How the results depend on the processing

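Of 540 alternative values of the members' log2 fold changes against control (18 alternatives for each value), 509 kept their direction and their side of the threshold, 3 passed it and 28 changed sign, and of 1080 over all 6 comparisons 66 changed sign. Leaving out any single library called 0 members in any comparison. Without 20 min plant 2 and 80 min plant 3 the members called were 1 at 20 min, 0 at 40 min, 2 at 80 min and 1 by the F test. The genes called were then 2404, 249 and 1631 at 20, 40 and 80 min against control, 3140, 5226 and 669 for 40 over 20, 80 over 20 and 80 over 40 min, and 4473 by the F test. These are 8.16, 0.846, 5.54, 10.7, 17.7, 2.27 and 15.2% of 29445 genes.

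DESeq2 called 1287, 585 and 900 genes against control, 1468, 2174 and 252 between times and 2425 by its likelihood ratio test, against 7, 26, 3, 0, 0, 0 and 21 by edgeR. Without a filter 10 genes were called at 80 min. With the replicate block 0, 0 and 1 were called at 20, 40 and 80 min and 0 by the F test. Same-numbered plants had correlations of deviations between -0.22 and 0.16, so the numbers were not taken as pairs. With only the 6 libraries compared, 3, 1, 3 and 1 were called at 20 and 40 min against control, for 40 over 20 and for 80 over 40 min. Leaving out 1 library gave 0 to 1014, 0 to 156 and 0 to 462 genes against control (the highest without 20 min plant 2, 20 min plant 2 and 80 min plant 3), 0 to 1451, 0 to 3541 and 0 to 182 between times, and 1 to 997 by the F test. The cause was not tested.

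Changed signs among log2 fold changes were near 0 in most cases. At 80 min against control Lalb_Chr21g0308741 gave -0.0189 by DESeq2, -0.0190 by RLE scaling, -0.0612 without a filter and -0.0349 with 6 libraries, and Lalb_Chr13g0300471 gave -0.00919 without a filter, -0.20 with the replicate block and -1.37 without 20 min plant 2 and 80 min plant 3. Without those, the other changed signs were -0.00483 (Lalb_Chr21g0308741, 20 min), 0.16 and 0.0401 (Lalb_Chr21g0308741 and Lalb_Chr09g0326411, 40 over 20 min), 0.00175, 0.15, 0.0775 and -0.39 (Lalb_Chr05g0222101, Lalb_Chr21g0308741, Lalb_Chr19g0134851 and Lalb_Chr13g0300471, 80 over 20 min), and 0.0663 and 0.12 (Lalb_Chr03g0030021 and Lalb_Chr01g0006921, 80 over 40 min).

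Leaving out 1 library changed the sign of these values. At 20 min against control the ranges were -0.20 to 0.13 for Lalb_Chr05g0222101, -0.38 to 0.10 for Lalb_Chr20g0109161 and -0.74 to 0.16 for Lalb_Chr01g0006921. At 40 min they were -0.20 to 0.37 for Lalb_Chr21g0308741 and -0.77 to 0.75 for Lalb_Chr13g0300471, and at 80 min -0.31 to 0.21 and -1.35 to 0.39 for the same genes. For 40 over 20 min they were -0.64 to 0.0283 (Lalb_Chr05g0222101), -0.42 to 0.0910 (Lalb_Chr21g0308741), -0.88 to 0.49 (Lalb_Chr07g0180141), -0.18 to 1.29 (Lalb_Chr13g0300471) and -0.0394 to 0.41 (Lalb_Chr03g0030021). For 80 over 20 min they were -0.23 to 0.0726 (Lalb_Chr05g0222101), -0.78 to 0.98 (Lalb_Chr13g0300471), -0.10 to 0.32 (Lalb_Chr03g0030021) and -0.53 to 0.0414 (Lalb_Chr16g0392441). For 80 over 40 min they were -0.0700 to 0.58 (Lalb_Chr05g0222101), -0.43 to 0.13 (Lalb_Chr21g0308741), -0.53 to 0.25 (Lalb_Chr09g0326411), -0.0245 to 0.14 (Lalb_Chr19g0134851), -0.92 to 0.16 (Lalb_Chr07g0180141), -1.60 to 0.77 (Lalb_Chr13g0300471), -0.21 to 0.0880 (Lalb_Chr03g0030021) and -0.39 to 0.14 (Lalb_Chr01g0006921). With 3 plants a group the spread between plants limits the precision. The F test with only the libraries compared is the same as with all.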

Other observations

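The other 7 genes with the synthase name had few reads in root tips, and their fold changes were not described above. Lalb_Chr08g0236381, named synthase and phosphatase, had 1429 reads over the 12 libraries and between 0.937 and 3.19 CPM in a plant. Lalb_Chr01g0006911, next to Lalb_Chr01g0006921, had 339 reads, and Lalb_Chr01g0016301 and Lalb_Chr01g0016311, neighbours on chromosome 1, had 202 and 89 reads. Lalb_Chr10g0095641 had 157 reads. Lalb_Chr13g0295411 and Lalb_Chr13g0295401 are neighbours on chromosome 13 and did not pass the filter on low counts. Lalb_Chr13g0295411 had 100 reads, all in control plant 1, and was at 0 in the other 11 libraries, and Lalb_Chr13g0295401 had 22 reads. Of these 7 genes 5 passed the filter, and 5 had deposited lengths of 166 to 528 residues, shorter than any of the 10 described above.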
